A study of Mus musculus with 9 samples.

Results

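The comparison is between murine MLL-AF9 leukaemia cells that carried the short hairpin RNA (shRNA) called shRNA-2, directed against Syncrip, and cells of the same leukaemia that carried a control hairpin. The samples were taken by their titles, KD2 with numbers 1 to 3 and Control with numbers 1 to 3, which gives 6 of the 9 samples of the series. The other 3 carried a different hairpin against Syncrip, shRNA-1, and serve here as the second reading of the target. All 9 samples expressed the MLL-AF9 fusion, came from tertiary transplanted leukaemia, and were collected 4 days after transduction, so the controls share the fusion, the passage through mice and the transduction. The design text of the series speaks of a luciferase hairpin as the control, whereas the sample labels speak of a scramble, so the control is called by its title only. Each sample was transduced and processed separately, per the design text. No source used here says how many mice gave the cells of a group. A p-value therefore sets a difference against the spread among cultures of 1 leukaemia model, each handled on its own.

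The protein SYNCRIP belongs to the heterogeneous nuclear ribonucleoproteins (hnRNPs), binds RNA and acts on the splicing, stability and translation of messenger RNAs. MLL-AF9 joins a histone methyltransferase to a partner of the transcription elongation machinery, and keeps myeloid progenitors in a self-renewing state through genes such as Hoxa9 and Meis1. When such cells leave that state they can take on features of monocytes, macrophages and neutrophils, the cells that their normal counterparts produce. Interferons are secreted antiviral proteins that switch on a broad set of genes through transcription factors downstream of their receptors, and macrophages express many of these genes at a basal level.

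The 3 controls held 18268263, 13683660 and 19483923 counts and the 3 shRNA-2 libraries 15915940, 14953491 and 15038631. Levels are given as CPM, counts scaled to a library of 1000000, on library sizes scaled by trimmed means (TMM), and differences as log2 fold changes ± standard error, shRNA-2 minus control. A gene is called higher or lower where the adjusted p of edgeR's quasi-likelihood test is under 0.05. Of 12663 genes tested, 3095 were called higher (24.4%) and 3067 lower (24.2%), and the median of all genes was 0.00426, so counts of members are read beside these shares. At least 2-fold changes were called for 12.4% of genes in the higher and 7.94% in the lower direction, and at least 8-fold changes for 1.11% and 0.134%. All shRNA-2 libraries lay above all controls for 27.3% of genes and below them for 28.1%. With scaling to total counts alone the median of all genes moved to -0.21 and higher genes made up 33.6% of 6335 calls, against 50.2% of 6162 with TMM, so every change is relative to the bulk of the genes.

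Within the 6 libraries, the first principal component held 76.8% of the variance and separated the groups. The second, with 11.6%, set shRNA-2 replicate 1 apart, at 32.5 against -21.6 and -5.39 for the other shRNA-2 libraries. Counts under ribosomal RNA genes made up 6.10%, 15.8% and 10.4% of the shRNA-2 libraries and 7.86%, 8.29% and 4.77% of the controls. Replicate 1 of shRNA-2 was thus the library with the lowest ribosomal share of its group, and the part of that share in the results was examined only through the fits with it as a covariate.

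Syncrip itself (chromosome 9, minus strand) stood at 241, 231 and 207 CPM in the controls and at 63.2, 46.3 and 60.4 CPM with shRNA-2. The groups did not overlap, and the fitted ratio to the control was 0.2501. The test called it lower at -1.999 ± 0.15 (adjusted p = 2.19e-06). With shRNA-1 the libraries held 20.1, 15.9 and 17.3 CPM, so the depth of the knockdown was smaller with shRNA-2 by 1.68 ± 0.15 on the log2 scale (adjusted p = 9.67e-06 for the difference between hairpins).

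Genes of macrophages rose with shRNA-2, led by the chains of complement C1q. C1q is the protein that binds antibody and dying cells and starts the classical complement pathway, and its 3 chains are encoded side by side on chromosome 4, C1qb at 136880129 to 136886187, C1qc at 136889804 to 136893065 and C1qa at 136895917 to 136898803 (GRCm38, the assembly of mm10). C1qb was at 0.355, 0.928 and 0.221 CPM in the controls and at 8.04, 59.9 and 44.3 CPM with shRNA-2. C1qa was at 0.355, 0.133 and 0.0884 CPM in the controls and at 2.45, 22.97 and 16.1 CPM with shRNA-2. C1qc went from 0.558, 0.729 and 0.177 CPM to 5.83, 45.01 and 26.9 CPM. In all 3 genes every shRNA-2 library lay above every control, replicate 1 was the lowest of its group, and the controls were below 1 CPM, where 3 counts are 0.133 to 0.199 CPM. The log2 fold changes were 6.31 ± 0.76, 6.10 ± 0.83 and 5.78 ± 0.80 for C1qb, C1qa and C1qc (adjusted p = 5.16e-05, 0.000113 and 0.000127), and with such low controls their size is imprecise. Without shRNA-2 replicate 1 they were 6.81, 6.62 and 6.28. Leaving out any 1 of the 6 libraries gave values from 5.12 (C1qc without shRNA-2 replicate 2) to 6.996 (C1qb without control replicate 2), and the calls held.

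The list of complement genes holds the C1q chains themselves and did not move as one. Of its 17 genes, 11 passed the filter on low counts, with a median of 1.51. Called higher were 7, the C1q chains among them, 1 was called lower and 3 were not called. C3ar1, the receptor of the C3a fragment, went from 22.3, 21.9 and 21.5 CPM to 117, 329 and 312 CPM (3.53 ± 0.32, adjusted p = 7.24e-06). The gene called lower, C1qbp, encodes a mitochondrial protein that was named for its binding of C1q. It stood at 315, 328 and 273 CPM in the controls and at 107, 92.0 and 89.3 CPM with shRNA-2 (-1.66 ± 0.12, adjusted p = 2.30e-06). With shRNA-2 replicate 1 left out, or with scaling to total counts, 2 were called lower.

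A list of 48 genes of macrophage identity had 41 members that passed the filter, of which 34 were called higher and 0 lower, against 24.4% and 24.2% of all genes. Its median was 2.00, and the count without shRNA-2 replicate 1 was 36. Csf1r, the receptor for the growth factor that macrophages need, went from 39.4, 50.1 and 66.4 CPM to 167, 283 and 350 CPM. It rose by 2.36 ± 0.31 (adjusted p = 9.90e-05), a 5.12-fold difference. The defining markers of macrophages were all higher: Cd68, a glycoprotein of lysosomes, by 2.33 ± 0.17, Cd14, the co-receptor for bacterial lipopolysaccharide, by 2.38 ± 0.32, Mpeg1, a pore-forming protein, by 2.73 ± 0.35, Mertk, a receptor for dying cells, by 2.40 ± 0.27, and Emr1, which encodes the F4/80 antigen, by 1.91 ± 0.24. Of the genes that define this leukaemia, Hoxa9, Meis1, Itgam and Spi1 were detected in all 6 libraries, and Kit was at 6.08 to 7.03 CPM in the controls and 3.50 to 3.87 CPM with shRNA-2. In bulk RNA, more cells of a type and more RNA per cell cannot be told apart.

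**Figure D1:**
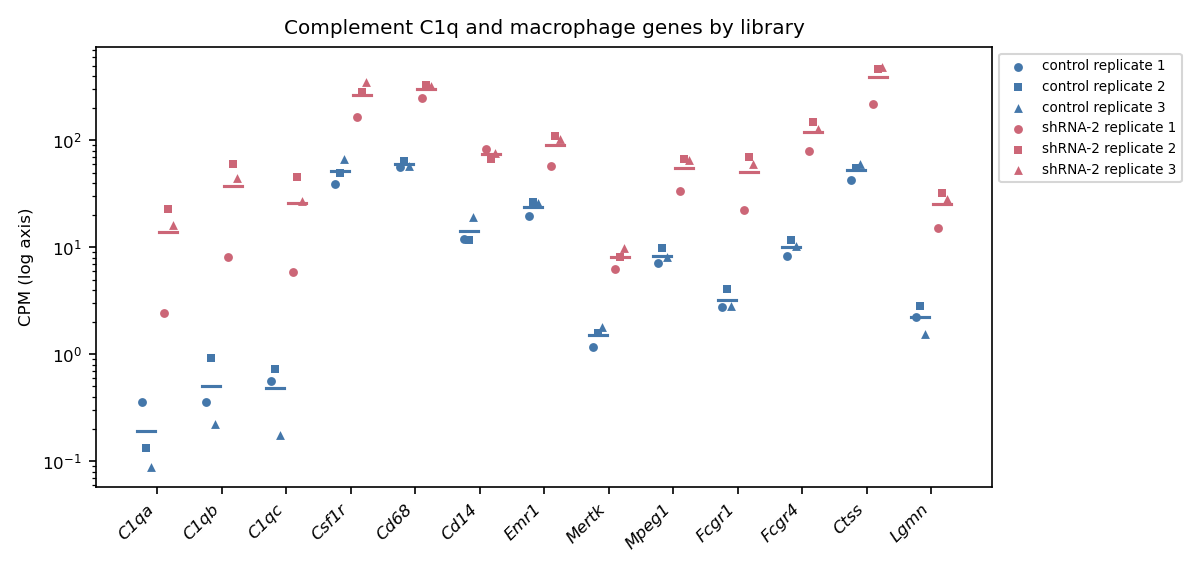
Levels of 13 genes of complement and macrophages in CPM (log axis) in the 3 control and 3 shRNA-2 libraries. Each marker shape is a replicate number and each bar a group mean. The groups are separated for every gene shown, with shRNA-2 above, as for 27.3% of all genes tested. Some of the genes were named for large rises, which favours this separation. Replicate 1 of shRNA-2 is the lowest of its group for C1qa, C1qb and C1qc.

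Surface receptors that recognise antibody, sugars and microbes followed the same direction. Of 18 Fc receptors and adaptors, 17 passed the filter, 12 were called higher and 1 lower, with a median of 0.71. Fcgr1, the high-affinity receptor for antibody, went from 2.79, 4.11 and 2.83 CPM to 22.3, 70.2 and 59.8 CPM (3.98 ± 0.40), and Fcgr4 rose by 3.56 ± 0.29. Btk, a kinase that signals below immune receptors, was the member called lower (-0.74 ± 0.17, adjusted p = 0.00320). Of 15 C-type lectin receptors 11 passed the filter, and 9 were called higher and 0 lower, with a median of 2.05. With shRNA-1 the median of these lectin receptors against the control was 1.57. Higher with shRNA-2 than with shRNA-1 were 7 of them and 0 were lower, against 21.3% and 19.7% of all genes. Clec7a, which encodes the fungal sensor dectin-1, was at 44.5, 39.1 and 48.1 CPM in the controls and at 163, 359 and 319 CPM with shRNA-2 (2.67 ± 0.32, adjusted p = 4.47e-05). The Clec4a genes lie in a family of close copies, so their reads are uncertain.

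Among 22 Toll-like receptor genes and adaptors 19 passed the filter, 14 were called higher and 2 lower, with a median of 1.05. Tlr4, the receptor for lipopolysaccharide, stood at 35.3, 28.4 and 26.4 CPM in the controls and at 163, 152 and 159 CPM with shRNA-2, a narrow range in both groups (2.40 ± 0.13, adjusted p = 5.74e-07). Its cofactor Ly96 rose by 2.26 ± 0.31 and Tlr7, a sensor of single-stranded RNA, by 2.64 ± 0.33. The signalling proteins below the receptors did not share one direction. The kinase Irak1 fell by 1.14 on the log2 scale and the ubiquitin ligase Traf6 by 0.96 (adjusted p = 1.56e-05 and 9.02e-05), and both lay lower than with shRNA-1 as well.

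Transcription factors of myeloid differentiation were mostly higher, with 18 of 28 tested members called higher and 1 lower and a median of 0.96. With 1 library left out at a time 13 to 19 were called higher, and with scaling to total counts 2 were called lower. Among the large rises were Id3, an inhibitor of basic helix-loop-helix factors (3.99 ± 0.45), Irf4 (2.74 ± 0.23) and Maf, a basic leucine zipper factor (2.73 ± 0.48). Gfi1, a repressor that favours neutrophils over monocytes, went from 207, 179 and 193 CPM to 103, 89.4 and 97.5 CPM (-0.997 ± 0.12, adjusted p = 4.87e-05). The factors that found the lineage did not pass the test. Spi1, which encodes PU.1, stood at 332, 402 and 319 CPM in the controls and at 509, 451 and 317 CPM with shRNA-2 (0.28 ± 0.17, adjusted p = 0.200), with overlapping groups. Without shRNA-2 replicate 3 it was called at 0.46 (adjusted p = 0.0341). Cebpa was at 60.3, 62.5 and 56.8 against 55.5, 59.5 and 48.5 CPM (-0.14 ± 0.12, adjusted p = 0.389), and was called lower at -0.36 (adjusted p = 0.0296) with scaling to total counts.

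Proteases of the lysosome, where phagocytes digest what they take up, were higher across the list. Of 35 lysosomal and phagosomal genes 34 passed the filter, 29 were called higher and 1 lower, with a median of 0.88, and 2 were called lower with scaling to total counts or with the ribosomal share as a covariate. Lgmn, an asparagine-specific protease, went from 2.23, 2.85 and 1.55 CPM to 15.3, 32.4 and 28.4 CPM (3.54 ± 0.30, adjusted p = 4.51e-06). Ctss, the cathepsin that trims the invariant chain of class II, went from 43.0, 54.7 and 60.3 CPM to 218, 462 and 486 CPM (2.88 ± 0.30), and Ctsl rose by 2.96 ± 0.27. Asah1, the acid ceramidase, was the member called lower (-1.03 ± 0.19, adjusted p = 0.000965).

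Secreted signals and the receptors that guide leukocytes also rose. Of 34 chemokines and cytokines 27 passed the filter, and 19 were called higher and 0 lower, with a median of 1.82, though 1 was called lower without shRNA-2 replicate 2 or with scaling to total counts. Ccl24, a chemokine that attracts eosinophils, was at 0.558, 0.464 and 1.37 CPM in the controls and at 10.8, 15.1 and 15.3 CPM with shRNA-2 (4.03 ± 0.36, adjusted p = 6.63e-06). With shRNA-1 the same gene stood at -1.30 ± 0.57 (adjusted p = 0.0992), and the hairpins differed by 5.33 ± 0.45 (adjusted p = 6.21e-06). Ppbp and Pf4, chemokines known from platelets and from monocytes, rose by 4.24 ± 0.62 and 3.11 ± 0.55. Of 20 chemoattractant receptors 19 passed the filter, 14 were called higher and 1 lower, with a median of 1.25. The call lower was lost whichever of the 6 libraries was left out. With shRNA-1 the median of these receptors against the control was 1.37. Higher with shRNA-2 than with shRNA-1 were 10 of them and 2 were lower, against 21.3% and 19.7% of all genes. Among the receptors were sensors of extracellular nucleotides. P2ry13 went from 2.53, 1.99 and 2.25 CPM to 29.5, 38.4 and 36.0 CPM (3.93 ± 0.19, adjusted p = 5.69e-07), P2ry6 rose by 3.63 ± 0.39 and P2ry14 by 2.87 ± 0.28. Of 15 tested genes of purinergic receptors and nucleotide breakdown 9 were called higher and 1 lower, with a median of 2.12, and 2 were called lower with scaling to total counts. The adenosine receptor Adora3 rose by 2.88 ± 0.27, and the ATP-gated channel P2rx1 was the member called lower (-0.61 ± 0.15).

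Markers of other cells were read beside these rises. A list of 16 megakaryocyte and platelet genes summed to 76.0 to 103.7 CPM in the controls and to 336 to 508 CPM with shRNA-2, with 7 members tested, 5 called higher and 0 lower (2 lower without control replicate 1, and 1 without shRNA-2 replicate 2 or with scaling to total counts). Nearly all of that sum was Plek, Ppbp, Itgb3 and Pf4. Of the 16 genes, 2 were at 0 in all 6 libraries, Tubb1 among them, and 8 stayed under 1 CPM. Among the low members, the mean of Selp went from 0.273 to 1.21 CPM, of Vwf from 0.537 to 1.21 CPM and of Clec1b from 0.246 to 0.865 CPM, while that of Gp9 went from 1.89 to 1.06 CPM and of Itga2b from 0.616 to 0.167 CPM. A list of 18 stromal and fibroblast genes summed to 590 to 693 CPM in the controls and to 1133 to 1672 CPM with shRNA-2. Of its 6 tested members 4 were called higher, Vim, Acta2, Fn1 and Col1a1, and 2 lower, Thy1 and Pdgfrb. Most of the sum was Vim (626 to 1404 CPM in the means), and 5 members were at 0 in all 6 libraries, Col3a1, Col6a1, Dcn, Lum and Pdgfra. Of 20 genes of T, NK and innate lymphoid cells, 8 were at 0 in all 6 libraries and 17 stayed under 1 CPM, with sums of 3.24 to 4.42 CPM in the controls and 5.53 to 6.93 CPM with shRNA-2. Genes of mast cells, basophils and eosinophils summed to 79.3 to 133 CPM in the controls and to 30.0 to 38.2 CPM with shRNA-2, and 6 of 8 tested members were called lower and 1 higher, with Prg2, a granule protein of eosinophils, at -2.15 ± 0.38. The part of other cells in the results was not tested.

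Genes that interferons induce rose with shRNA-2 as broadly as those of macrophages. Of 60 genes of the type I interferon response 57 passed the filter, and 48 were called higher and 0 lower, with a median of 1.78. Of all genes 24.4% were called higher and 24.2% lower. This list, like the others, was chosen with earlier results of these data known. The count lower was 1 with the replicate number as a block, without shRNA-2 replicate 1 or with scaling to total counts. Isg15, a ubiquitin-like protein (chromosome 4, 156199424 to 156200818), was at 19.6, 18.9 and 21.7 CPM in the controls and at 116, 98.7 and 94.0 CPM with shRNA-2 (2.35 ± 0.39, adjusted p = 0.000422). Ifit1, which binds uncapped viral RNA (chromosome 19, 34640871 to 34650009), was at 5.73, 9.02 and 10.1 CPM and at 64.5, 27.3 and 47.0 CPM (2.48 ± 0.38, adjusted p = 0.000277). In both genes the groups did not overlap, and replicate 1, the lowest shRNA-2 library for C1q, was the highest.

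Interferon-stimulated genes are known to be switched on through an element called ISRE, whose core was searched here on both strands as GAAA, any 2 bases and GAAA again. The windows run from 250 bases before to 50 bases after each RefSeq start site on GRCm38.p6. Such a window was found by symbol for 8585 of the tested genes, 11006 windows in all. The core was in 42.9% of windows of the interferon list (21 of 49), in 77.8% of those of guanylate-binding proteins and immunity-related GTPases (7 of 9), and in 3.14% of all windows. With the bases before the start site alone it was in 32.7%, 77.8% and 2.69%. Of the windows of all genes called higher 4.35% held it, and of those of genes not called 2.79%. List members that were not called also held it, among them Bst2, Eif2ak2 and Trim21. Matches at distinct positions may overlap, and some genes have more than 1 window. Shown are 60 bases before the start sites of 3 members that rose, with every match of the core in either orientation in capitals.
Isg15: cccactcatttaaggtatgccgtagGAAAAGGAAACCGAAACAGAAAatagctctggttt
Ifit1: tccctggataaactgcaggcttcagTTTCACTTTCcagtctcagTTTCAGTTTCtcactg
Irgm2: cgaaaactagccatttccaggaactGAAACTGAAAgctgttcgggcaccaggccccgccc
These stretches are chr4:156200862-156200921 on the minus strand, chr19:34640760-34640819 on the plus strand and chr11:58214888-58214947 on the plus strand. The core begins 78 bases before the start site in Isg15 and overlaps itself there, lies 104 and 85 bases before it in Ifit1, and 64 bases before it in Irgm2. A match is a description of the sequence and does not show binding.

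Several interferon genes with large rises were low in the controls. Oasl2, an antiviral relative of the oligoadenylate synthetases (chromosome 5, 114896936 to 114912234), went from 2.08, 2.92 and 2.83 CPM to 41.3, 43.7 and 52.5 CPM (4.13 ± 0.26, adjusted p = 9.01e-07). Ifit3, the partner of Ifit1, went from 1.22, 1.59 and 1.41 CPM to 17.9, 15.2 and 22.2 CPM (3.71 ± 0.39). Zbp1, a sensor of Z-form nucleic acid that can trigger cell death, went from 7.50, 12.1 and 9.68 CPM to 65.6, 101 and 91.3 CPM (3.14 ± 0.35). These 3 showed no overlap and no shared order of the shRNA-2 libraries. Ifi27l2a and Phf11d, which have close copies in the genome so that their reads are uncertain, rose by 3.68 ± 0.44 and 3.18 ± 0.41. Bst2, which holds budding virus at the cell surface, did not pass at 0.76 ± 0.31 (adjusted p = 0.0620), and passed at 0.77 (adjusted p = 0.00433) with the replicate number as a block.

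The interferon genes themselves were not detected. All 19 symbols of type I, II and III interferons in the tables had 0 counts in each of the 6 libraries, which allows up to 3 counts each, or 0.133 to 0.232 CPM per library. Of 38 genes of interferon and nucleic acid sensing 34 passed the filter, 21 were called higher and 1 lower, with a median of 0.81. The count lower was 2 with the replicate number as a block, without shRNA-2 replicate 1 or with scaling to total counts. Irf7, the factor that amplifies interferon induction, went from 16.0, 19.4 and 18.6 CPM to 39.9, 75.5 and 67.7 CPM (1.76 ± 0.33, adjusted p = 0.00102), and Irf5 rose by 2.45 ± 0.25. Socs1, which restrains signalling below cytokine receptors, went from 12.6, 13.4 and 9.77 CPM to 96.5, 109.6 and 66.4 CPM (2.93 ± 0.20, adjusted p = 1.35e-06). The member called lower was Irf3, the factor that acts directly below cytosolic sensors, at 29.2, 34.8 and 41.2 CPM in the controls and 12.1, 18.1 and 20.4 CPM with shRNA-2 (-1.06 ± 0.20, adjusted p = 0.000949). Ifih1, the RNA sensor MDA5, was called at 0.54 ± 0.21 (adjusted p = 0.0448), and lost the call in 7 of the alternative fits, with an adjusted p of up to 0.222.

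Guanylate-binding proteins and immunity-related GTPases, which attack vacuoles that hold microbes, rose together. Of 19 such genes 11 passed the filter and all 11 were called higher, against 24.4% of all genes, with a median of 1.49. The count was 9 to 11 with 1 library left out. The filter can keep a gene that is low in the controls through its level with a hairpin, as for Gbp4, which favours calls higher. Of the 19 genes, 7 stayed under 1 CPM in all 6 libraries. Gbp4 (chromosome 5, 105115767 to 105139586) was at 0.304, 0.663 and 0.354 CPM in the controls and at 13.2, 11.99 and 17.1 CPM with shRNA-2 (5.03 ± 0.30, adjusted p = 7.51e-07). Gbp2 went from 0.710, 1.86 and 1.28 CPM to 12.9, 16.6 and 22.5 CPM (3.78 ± 0.41), while Irgm2 and Gbp3, the more abundant members, rose by 1.49 ± 0.23 and 1.46 ± 0.21. The genes of this family are similar to each other, so reads can be split between copies.

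Antigen presentation was higher in both classes. Of 23 genes of class I presentation 22 passed the filter, and 15 were called higher and 0 lower, with a median of 0.81. H2-D1, a classical class I heavy chain with close copies, went from 553, 382 and 367 CPM to 1177, 948 and 982 CPM (1.26 ± 0.17), and Psmb9, a subunit of the immunoproteasome, rose by 1.36 ± 0.14. Of 19 genes of class II presentation 16 passed the filter, and 10 were called higher and 0 lower, with a median of 0.96. Cd74, the invariant chain, went from 3.09, 8.75 and 8.44 CPM to 32.0, 58.9 and 49.9 CPM (2.80 ± 0.36, adjusted p = 7.29e-05), and the costimulator Cd80 rose by 2.71 ± 0.44. With scaling to total counts 1 member of each list was called lower, as was 1 of class I in a fit of the 6 libraries alone.

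Both groups of genes differed between the hairpins by their own test. Of the 57 interferon genes, 47 were higher with shRNA-2 than with shRNA-1 and 0 lower, against 21.3% and 19.7% of all genes. Their median against the control was 0.12 with shRNA-1. Of the 41 macrophage genes, 27 were higher with shRNA-2 than with shRNA-1 and 0 lower, and their median against the control was 0.33 with shRNA-1. Ifit1 was 2.60 ± 0.40 higher with shRNA-2 than with shRNA-1 (adjusted p = 0.000356), Isg15 1.92 ± 0.38 (0.00205), and Csf1r 2.42 ± 0.32 (0.000122). The comparisons of each hairpin with the control share the control libraries, and the comparison between hairpins uses them only in the scaling, the filter and the common estimate of spread.

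**Figure D2:**
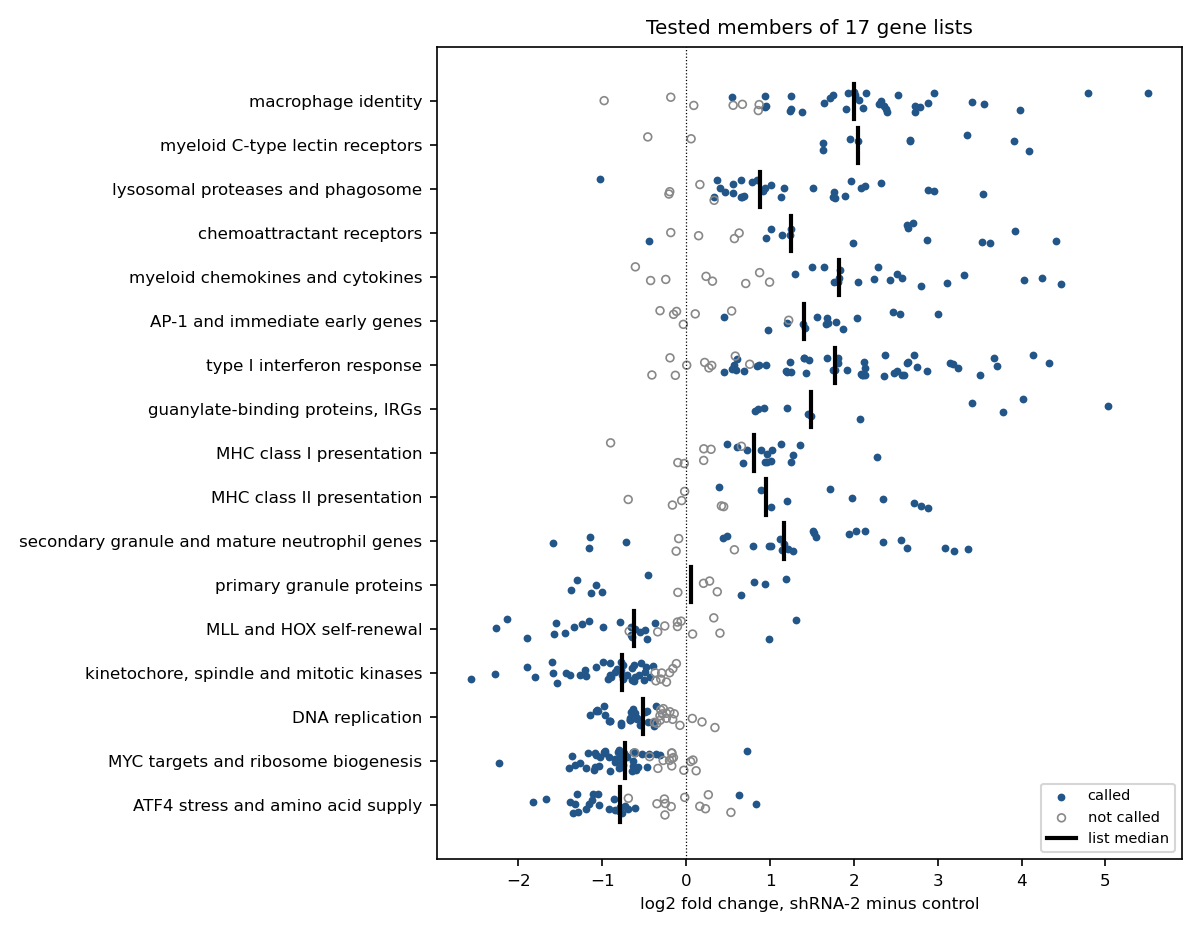
Log2 fold changes, shRNA-2 minus control, of the tested members of 17 gene lists. Filled points passed the test, open points did not, and black bars are list medians. Medians run from 2.05 for C-type lectin receptors to -0.78 for genes of ATF4 and amino acid supply, and each list holds a spread of values around its median.

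Neutrophil genes were higher too, but not all kinds of granule. Of 30 genes of secondary granules and mature neutrophils 29 passed the filter, 22 were called higher and 4 lower, with a median of 1.17. The count lower was 2 without control replicate 3, 2 without shRNA-2 replicate 3 and 2 with the ribosomal share as a covariate. Il1r2, the decoy receptor for interleukin-1, went from 20.4, 30.1 and 32.2 CPM to 335, 266 and 249 CPM (3.36 ± 0.20, adjusted p = 7.90e-07), and stood at 0.08 ± 0.19 with shRNA-1 (adjusted p = 0.783). The list as a whole was not particular to shRNA-2, with a median of 1.29 for shRNA-1 against the control, and 8 members higher and 8 lower with shRNA-2 than with shRNA-1. Anxa1, annexin A1, stood at 3.19 ± 0.23 with shRNA-2 and 3.42 ± 0.23 with shRNA-1. Trem1 rose by 2.35 ± 0.14 and the collagenase Mmp8 by 2.56 ± 0.28. Ltf, which encodes the granule protein lactoferrin, was lower at 12.4, 13.1 and 11.7 against 6.93, 5.18 and 4.52 CPM (-1.15 ± 0.18, adjusted p = 0.000351).

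Of the 14 primary granule genes 4 were called higher (28.6%) and 6 lower (42.9%), against 24.4% and 24.2% of all genes. The share higher was thus near that of all genes, and the median was 0.06. Elane, neutrophil elastase, went from 1649.8, 1745 and 1399 CPM to 3798, 4788 and 2407 CPM (1.20 ± 0.27). Ctsg, cathepsin G, went from 859, 848 and 730 CPM to 306, 453 and 349 CPM (-1.14 ± 0.16, adjusted p = 0.000144). Mpo, myeloperoxidase, stood at 25.04, 24.3 and 14.01 CPM in the controls and at 6.01, 12.8 and 7.15 CPM with shRNA-2 (-1.30 ± 0.27, adjusted p = 0.00219). With shRNA-1 it was at 4.64 ± 0.29, and the hairpins differed by -5.94 ± 0.31 (adjusted p = 7.36e-07).

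Immediate early genes, which follow growth factor and stress signals, had 22 of 24 members past the filter, with 15 called higher and 0 lower and a median of 1.41, though 1 was called lower without shRNA-2 replicate 1. Dusp6, a phosphatase that limits ERK signalling, went from 37.5, 32.2 and 35.5 CPM to 255, 301 and 289 CPM (3.01 ± 0.24, adjusted p = 3.39e-06). Atf3 rose by 2.55 ± 0.31 and Dusp1, a related phosphatase, by 2.47 ± 0.29.

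Several of the largest rises were in genes outside these lists. Bpifc, of the family of bactericidal permeability proteins, went from 7.05, 5.24 and 3.32 CPM to 277, 146 and 164 CPM (5.24 ± 0.37). Car4, a membrane-bound carbonic anhydrase, went from 10.6, 15.2 and 25.7 CPM to 265, 341 and 305 CPM (4.14 ± 0.29), and stood at -0.27 ± 0.28 with shRNA-1 (adjusted p = 0.477). Rgs5, which limits G-protein signalling, was at 0.203, 1.19 and 0.531 CPM in the controls and at 9.45, 25.7 and 29.0 CPM with shRNA-2 (5.12 ± 0.52). Serpinb2 (4.34 ± 0.45), the leukocyte adhesion gene Amica1 (4.31 ± 0.64), Ambp (4.29 ± 0.39) and Prr5l (4.13 ± 0.34) came with them. Of the 15 largest rises, 14 were higher than with shRNA-1 by the test of the difference, against 21.3% of all genes. The exception was Ppbp at 1.03 ± 0.52 (adjusted p = 0.135), and 11 of the 15 were not called with shRNA-1. The set was chosen by its rise with shRNA-2, whose libraries the difference also uses, so the selection favours such a difference. Separate groups were required of a gene to enter this set, so their separation is no result.

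The largest fall among the genes named by rule was that of Abi2, which encodes an Abl interactor of the actin-branching WAVE complex (chromosome 1, 60409619 to 60481158). It went from 12.4, 15.05 and 11.9 CPM to 0.982, 1.24 and 0.607 CPM with shRNA-2 (-3.80 ± 0.23, adjusted p = 7.90e-07). With shRNA-1 its libraries held 19.3, 18.4 and 16.98 CPM. The levels of Abi2 were therefore apart in all 3 groups, lowest with shRNA-2 and highest with shRNA-1. Of 10 tested genes of the complex and its relatives 5 were called higher and 2 lower, with a median of 0.31, and with scaling to total counts 3 were called higher and 3 lower. Abi3 rose by 2.06 ± 0.29, Cyfip1 by 0.97 ± 0.13 and Brk1 by 0.72 ± 0.17. Besides Abi2 the member called lower was Wasl, an activator of branched actin (-0.42 ± 0.14, adjusted p = 0.0282), which lost the call in 7 of the alternative fits, with an adjusted p of up to 0.0991.

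Cks1b, a subunit of cyclin-dependent kinases that also helps to destroy the inhibitor p27 (chromosome 3, 89415472 to 89418383), was at 723, 441 and 487 CPM in the controls and at 91.4, 72.9 and 67.5 CPM with shRNA-2 (-2.83 ± 0.20, adjusted p = 2.10e-06). With shRNA-1 it was at 722, 645 and 580 CPM, and the hairpins differed by -3.07 ± 0.21 (adjusted p = 1.72e-06). Eif4g2, a translation factor that acts without the cap-binding subunit (chromosome 7, 111067750 to 111083030), went from 1327, 1029.8 and 992 CPM to 207, 177 and 156 CPM (-2.63 ± 0.17, adjusted p = 1.24e-06), and stood at 0.11 ± 0.16 with shRNA-1. These were among the most abundant of the genes that fell so far, and for both the shRNA-1 libraries lay within or near the range of the controls.

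Of the 15 largest falls, 14 were lower than with shRNA-1 by the test of the difference, against 19.7% of all genes. The set was chosen by its fall with shRNA-2, whose libraries the difference also uses, so the selection favours such a difference. Of the 15, 8 were not called with shRNA-1. These 8 were Cyp2a5, Cks1b, Eif4g2, Cln6, Eef1e1, Zfp783, Prkrir and Tle4. Eef1e1, a scaffold of tRNA synthetases, stood at -2.50 ± 0.16 with shRNA-2 and 0.20 ± 0.15 with shRNA-1, Cln6, a protein of the endoplasmic reticulum, at -2.63 ± 0.22 and 0.18 ± 0.20, and Tle4, a corepressor of the Groucho family, at -2.39 ± 0.14 and -0.07 ± 0.13. Hspa2, a chaperone, was the exception, at -2.58 ± 0.18 and -2.47 ± 0.18, with a difference of -0.11 ± 0.18 (adjusted p = 0.671). Cyp2a5 has close copies, so its reads are uncertain. The sequence of the hairpins was not used here, and what separates the hairpins at these genes was not tested.

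**Figure D3:**
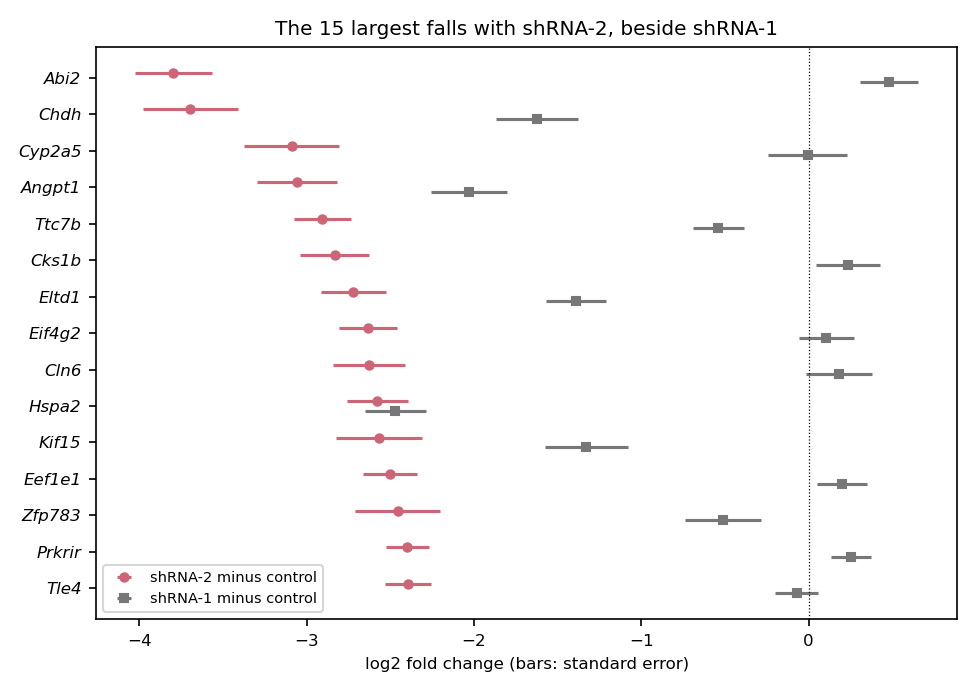
Log2 fold changes against the control of the 15 genes with the largest falls with shRNA-2 (circles) and of the same genes with shRNA-1 (squares), with standard errors. The shRNA-2 values run from -3.80 to -2.39, and the shRNA-1 values from -2.47 to 0.48, with 8 of the genes not called with shRNA-1. The genes were chosen by their fall with shRNA-2, which favours a smaller fall with shRNA-1.

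Genes of MLL-driven self-renewal and of the hnRNP family fell. Of 36 MLL and HOX genes 30 passed the filter, 2 were called higher and 19 lower, with a median of -0.62. The largest falls were in Hoxa3 (-2.26 ± 0.45), Kmt2a (-2.13 ± 0.19), Msi2 (-1.90 ± 0.14) and Jmjd1c (-1.57 ± 0.22). Hoxa9 was at 378, 378 and 440 CPM in the controls and at 154, 139.6 and 148 CPM with shRNA-2, and was lower than with shRNA-1 by 0.88 ± 0.12 (adjusted p = 0.000119). In its list of 30 tested genes, 2 were lower with shRNA-2 than with shRNA-1 and 7 higher, against 19.7% and 21.3% of all genes. The median difference between hairpins was 0.04, and the list median against the control was -0.79 with shRNA-1. Meis1, the partner of Hoxa9, was called at -0.37 ± 0.11 (adjusted p = 0.0161). It lost the call when control replicate 2, control replicate 3 or shRNA-2 replicate 3 was left out (adjusted p up to 0.0672).

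Of 38 hnRNP and associated RNA-binding proteins 36 passed the filter, 3 were called higher and 20 lower, with a median of -0.41, and 5 were called higher with the replicate number as a block. Syncrip is one of the 20. Hnrnpul2, an hnRNP of the DNA damage response (chromosome 19, 8820010 to 8834143), fell from 140, 137 and 120 CPM to 35.6, 19.3 and 27.2 CPM (-2.27 ± 0.19, adjusted p = 4.01e-06). Syncrip stood at -1.999 ± 0.15, and whether the falls of these genes differ was not tested. Hnrnph3, a splicing factor, went from 52.6, 51.9 and 59.2 CPM to 20.002, 15.4 and 16.7 CPM (-1.65 ± 0.14), and stood at -0.03 ± 0.13 with shRNA-1, a difference of -1.62 ± 0.14 (adjusted p = 6.07e-06). Hnrnpr, the paralog of Syncrip, was lower at -0.42 ± 0.12 (adjusted p = 0.0118), and Ptbp3 rose by 1.12 ± 0.13.

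Genes of cell division fell together. All 46 genes of kinetochore, spindle and mitotic kinases passed the filter, and 38 were called lower and 0 higher, with a median of -0.76. Top2a, the topoisomerase that untangles chromosomes (chromosome 11, 98992943 to 99024189), went from 957, 984 and 1100.3 CPM to 262, 155 and 209.8 CPM (-2.28 ± 0.19, adjusted p = 3.68e-06). Prc1, which bundles the central spindle, went from 167, 148 and 166 CPM to 51.8, 35.03 and 42.4 CPM (-1.89 ± 0.16), and the motor Kif15 fell by 2.57 on the log2 scale. Mki67, the proliferation marker, was at 67.0, 92.7 and 100.1 CPM in the controls and at 45.3, 13.998 and 36.5 CPM with shRNA-2 (-1.43 ± 0.32, adjusted p = 0.00330). Replicate 1 of shRNA-2 held the highest level of its group for Top2a, Prc1, Kif15 and Mki67. Of the 46 genes, 23 were lower with shRNA-2 than with shRNA-1 and 0 higher, against 19.7% of all genes.

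Promoters of such genes are known for a CHR element, searched here as TTTGAA, with CCAAT boxes before it, both on either strand. TTTGAA was in 72.1% of windows of the mitotic list (31 of 43) and in 12.1% of all windows, and with the bases before the start site alone in 34.9% and 10.7%. It was also in 55.6% of windows of guanylate-binding proteins and immunity-related GTPases (5 of 9) and in 24.5% of those of the interferon list (12 of 49), which rose, and in 13.1% of windows of all genes called lower and 13.6% of those of the replication list. CCAAT was in 76.7% of windows of the list and in 38.0% of all. The stretches shown lie before the start sites of 2 members that fell, with both motifs in capitals.
Mki67: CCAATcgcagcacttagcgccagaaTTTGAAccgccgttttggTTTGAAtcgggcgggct
Top2a: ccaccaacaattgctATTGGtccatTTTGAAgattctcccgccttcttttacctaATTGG
They are chr7:135716461-135716520 and chr11:99024334-99024393, both on the minus strand of GRCm38.p6, and end 81 and 144 bases before the start site. The mouse genome holds these 6 bases in many other places, as the share over all windows shows.

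Genes of DNA replication and of ribosome biogenesis were also mostly lower. Of 44 replication genes, all past the filter, 28 were called lower and 0 higher, with a median of -0.52, and 1 was called higher without shRNA-2 replicate 3. Rrm2, the subunit of ribonucleotide reductase made in S phase, went from 218, 204 and 194 CPM to 89.5, 102 and 87.0 CPM (-1.15 ± 0.12) and stood at 0.16 with shRNA-1. Of 60 MYC targets and ribosome biogenesis genes 58 passed the filter, 43 were called lower and 1 higher, with a median of -0.73. Polr1a, the largest subunit of RNA polymerase I, which transcribes ribosomal RNA genes, went from 32.2, 27.3 and 25.1 CPM to 6.81, 4.64 and 6.54 CPM (-2.23 ± 0.18, adjusted p = 3.61e-06). Npm1, nucleophosmin, fell by 1.36 on the log2 scale. Myc itself did not pass, at 30.0, 38.1 and 38.8 CPM in the controls and 42.4, 23.9 and 21.9 CPM with shRNA-2 (-0.27 ± 0.23, adjusted p = 0.342). Without shRNA-2 replicate 1, the library above the others, it was called at -0.62 (adjusted p = 0.00685). The exception in the list was Max, the partner of MYC, which rose by 0.73 ± 0.17. The 48 cytosolic ribosomal proteins did not share this direction, with 10 called higher and 4 lower and a median of 0.11, and with scaling to total counts 2 were called higher and 10 lower. Single libraries also moved these counts, to 4 higher and 2 lower without control replicate 3, to 6 higher without control replicate 2, to 5 higher without shRNA-2 replicate 3 and to 7 lower without shRNA-2 replicate 2.

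Genes that ATF4 controls, for amino acid supply and tRNA charging, were lower with shRNA-2. All 35 passed the filter, and 22 were called lower and 2 higher, with a median of -0.78, and the count higher was 1 to 3 with 1 library left out. Psat1, an enzyme of serine synthesis, went from 582, 596 and 535 CPM to 151, 184 and 147 CPM (-1.83 ± 0.14, adjusted p = 2.99e-06). It stood at -0.10 ± 0.14 with shRNA-1 (adjusted p = 0.611), and the hairpins differed by -1.73 ± 0.14 (adjusted p = 5.73e-06). Mars, the methionyl-tRNA synthetase, fell by 1.67 on the log2 scale, and Atf4 went from 1977, 2021 and 2659 CPM to 1217, 732 and 604 CPM (-1.38 ± 0.27, adjusted p = 0.00144). Of the 35 genes, 20 were lower and 4 higher with shRNA-2 than with shRNA-1, against 19.7% and 21.3% of all genes.

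Genes known as p53 targets were more often higher than lower. Of 32 p53 targets 30 passed the filter, 16 were called higher and 2 lower, with a median of 0.62, and 6 were called lower with scaling to total counts and 4 with the ribosomal share as a covariate. Cdkn1a, which encodes p21, was at 234, 290.4 and 267 CPM in the controls and at 873, 1111 and 1044 CPM with shRNA-2 (1.94 ± 0.21). Trp53inp1 went from 8.57, 9.88 and 10.4 CPM to 36.4, 68.4 and 64.2 CPM (2.55 ± 0.32), and Zmat3 from 15.9, 14.5 and 16.8 CPM to 59.0, 81.8 and 86.3 CPM (2.27 ± 0.19). Of 18 CDK inhibitors, cyclins and retinoblastoma proteins 9 were called higher and 3 lower, with a median of 0.43, and 6 were called higher with scaling to total counts. Cdkn1c, which encodes p57, rose by 1.26 ± 0.28, and so did Ccnd1 and Ccnd2, D-type cyclins that drive entry into the cycle, by 1.32 ± 0.15 and 1.03 ± 0.11. Cdk6, their kinase partner, fell from 297, 315 and 296 CPM to 161, 181 and 184 CPM (-0.79 ± 0.11), and the others called lower were Rbl1 and Rbl2, relatives of the retinoblastoma protein. Rbl1 lost its call in 5 of the alternative fits (adjusted p up to 0.0963). Bcl2l11, which encodes the death inducer BIM, went from 41.0, 30.4 and 37.2 CPM to 141, 115 and 142 CPM (1.87 ± 0.14, adjusted p = 2.54e-06).

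The list medians in each library show how alike the shRNA-2 libraries were. For each member the log2 ratio of CPM + 1 to the mean control was taken, and its median over the list is given. For macrophage identity it was 1.12, 1.81 and 1.90 in replicates 1, 2 and 3, and for type I interferon genes 1.22, 1.38 and 1.64. For mitotic genes it was -0.61, -0.88 and -0.80. In the 8 lists plotted the shRNA-2 libraries lay on one side of the controls, and replicate 1 was the nearest to them. Other lists had the opposite order. Replicate 1 was the farthest from the controls for immediate early genes, at 1.38 against 1.20 and 0.99, for Toll-like receptors, at 1.05 against 0.97 and 0.85, for CDK inhibitors and cyclins, at 0.62 against 0.34 and 0.26, and for myeloid transcription factors, at 0.86 against 0.83 and 0.70.

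**Figure D4:**
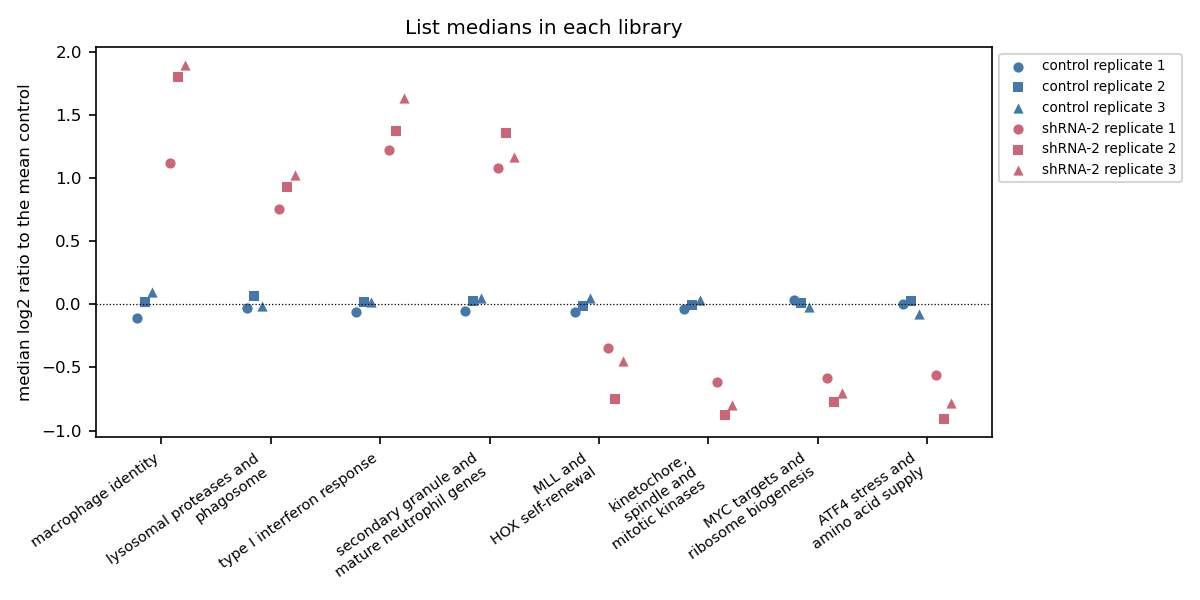
Median over the tested members of 8 gene lists of the log2 ratio of CPM + 1 to the mean of the controls, for each of the 6 libraries. Marker shapes are replicate numbers. The 3 controls lie near 0, and shRNA-2 replicate 1 (circle) is closest to them, at 1.12 for macrophage identity against 1.81 and 1.90.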

How the data were processed

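The authors deposited a table of read counts per gene for each of the 9 libraries. Per the submitters' processing notes these involved STAR 2.3.0e, HTSeq 0.6.0 and the mm10 build, and no source used here gives the annotation release or the strand setting. Without a strand setting, overlapping and antisense genes cannot be told apart, and reads of close copies are uncertain. The labels' protocols describe total RNA, an oligo-dT first strand and a random second strand.

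Entries with 1 symbol were summed (39179 entries, 38926 symbols), and no entry held unassigned reads. In R 4.3.3, edgeR 4.0.16 filtered genes by group with filterByExpr, which left 12663 genes, applied TMM scaling and fitted 1 quasi-likelihood model with a term per group to all 9 libraries, so that the groups share 1 estimate of spread. The common biological coefficient of variation was 0.165. P-values were adjusted over all genes by Benjamini and Hochberg, with 0.05 as the threshold, and the standard error is the fold change over the square root of F. Every adjusted p here is edgeR's. The script was tested on simulated counts. Positions are from GENCODE on GRCm38, the assembly of mm10, and promoter sequences from RefSeq on GRCm38.p6.

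The members and lists were chosen with earlier results of these data known. Genes were named by rule: a set given by name, the 15 largest rises and falls among called genes whose groups did not overlap and whose mean reached 5 CPM, and up to 4 members per list and direction. Others (Tubb1, Selp, Vwf, Clec1b, Itga2b, Gp9, Fn1, Col1a1, Thy1, Pdgfrb and stromal genes at 0) were picked after their values were seen. With the group means removed, shRNA-2 and control libraries of the same number correlated at 0.189, 0.231 and 0.146. Those of unlike numbers correlated at -0.188 to -0.019. The titles give the numbers but not what they mark, so whether the samples are paired was not settled. The main fit has no term for the number, so its p-values and standard errors leave a pairing out. The alternatives were DESeq2 1.42.0 and limma-voom 3.58.1, other scalings, filters and thresholds, a fit of 6 libraries, a block for the replicate number, a ribosomal covariate and leaving out each library.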

Additional observations from a re-analysis of the deposited data

How the results depend on the processing

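Against 3095 genes higher and 3067 lower, leaving out 1 library at a time gave 2675 to 3264 higher and 2411 to 3168 lower. With the replicate number of the titles as a block, 3328 were higher and 3317 lower. Apart from Bst2, no named call changed with this block. List counts also moved beyond those given with their results, such as macrophage identity from 34 to 36 higher and mitotic genes from 38 to 40 lower. DESeq2 gave 3131 and 3061, limma-voom 3090 and 3141, a fit of the 6 libraries alone 2861 and 2715, and the ribosomal covariate 2912 and 2876. Scaling to total counts gave 2130 higher and 4205 lower. An adjusted p under 0.01 left 2234 higher and 2029 lower, and a change of at least 2-fold left 1573 and 1005. The difference between hairpins was called for 5192 genes, for 4745 with total counts, for 5640 with the block and for 5231 with DESeq2. No direction reversed among the named genes that were called. Of the single-gene values under the alternatives, 3553 kept their call, 127 lost it and 20 gained it. Of 1632 list counts, 210 moved by over 1.5 times. Genes under the filter were not tested, and at the control level of C1q the depth of 13683660 to 19483923 counts leaves the size of the change imprecise. The causes of these shifts were not tested.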

Other observations

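Metabolic genes moved in both directions with shRNA-2. Of 37 genes of cholesterol and fatty acid synthesis and handling, 3 were called higher and 18 lower, against 24.4% and 24.2% of all genes. Abcg1, which exports cholesterol from macrophages, went from 14.9, 16.6 and 12.95 CPM to 75.2, 126 and 103 CPM (2.78 ± 0.19), while the synthesis enzymes Acaca, Nsdhl and Lss fell by 1.12, 1.00 and 0.97 on the log2 scale. In the pentose phosphate pathway Rpia went from 134, 127 and 137 CPM to 52.0, 45.01 and 47.8 CPM (-1.46 ± 0.11), and was lower than with shRNA-1 by 1.78 ± 0.11.

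Adhesion genes were higher for the most part. Of 21 integrins and adhesion genes 19 passed the filter, 13 were called higher and 1 lower, with a median of 0.94. Itgb3, the chain of the vitronectin receptor, went from 5.83, 6.17 and 8.05 CPM to 40.6, 25.3 and 30.8 CPM (2.27 ± 0.20). Itga4, a chain of the integrin VLA-4, was the member called lower (-1.36 ± 0.14), and up to 3 were called lower when control replicate 1 was left out.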
